A study of Mus musculus with 28 samples.

Results

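The genes described here were 8 CC chemokines (*Ccl2*, *Ccl3*, *Ccl4*, *Ccl6*, *Ccl7*, *Ccl8*, *Ccl9* and *Ccl12*) and 2 chemokine receptors of monocytes (*Ccr2* and *Cx3cr1*), followed in mouse arteriovenous fistulas (AVFs). They were chosen by their symbols and make up 10 of the 56980 genes in the bulk count table and 10 of the 32285 in the single-cell matrices. All 10 passed the filter on low counts in the bulk table, a mean normalized count of at least 100 over the libraries, which kept 12673 genes. Male and female C57BL/6 mice first lost most of their kidney mass by 5/6 nephrectomy, and the end of a jugular vein was then joined to the side of the carotid artery. The controls were contralateral jugular veins. By the study's methods all mice had both surgeries, so these veins came from mice that carried the nephrectomy and an AVF as well. The labels give no postoperative day for the veins. In bulk, each library was 1 vessel: 7 contralateral veins (2 male and 5 female), 8 early AVFs (5 male and 3 female), 5 mid AVFs (2 male and 3 female) and 5 late AVFs (2 male and 3 female), where early, mid and late carry the nominal postoperative days 3, 10 and 21 in their labels. Single cells came from 3 libraries (contralateral, early and late), each a pool of 10 vessels from both sexes, so that the single-cell values have no replicates. By the study's methods, days varied within each AVF group, and early and late single cells came on average later than bulk vessels of that name. The labels do not say which vein and which AVF came from the same mouse, and mouse age was not given in the sources used here.

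Chemokines are small secreted proteins that guide leukocytes along a gradient, and those of the CC family carry a pair of adjacent cysteines near the start of the mature protein. Mouse CCL2, CCL7 and CCL12 bind CCR2, the receptor that brings classical monocytes out of the bone marrow and into inflamed tissue. CCL8 is better known in the mouse as a ligand of CCR8, CCL3 binds CCR1 among others, CCL4 is made by activated myeloid and T cells, and CCL6 and CCL9 are made by myeloid cells and act through CCR1. CX3CR1 binds the membrane-bound chemokine CX3CL1 and marks patrolling monocytes and many tissue macrophages.

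All 8 ligand genes lie on chromosome 11 (GRCm38), in 2 groups. *Ccl2* (82035571 to 82037453), *Ccl7* (82045712 to 82047525), *Ccl12* (82101845 to 82103400) and *Ccl8* (82115185 to 82116799) follow each other on the plus strand. *Ccl9* (83572919 to 83578636), *Ccl6* (83587882 to 83593087) and *Ccl3* (83647844 to 83649355) lie on the minus strand, beside *Ccl4* (83662584 to 83664683) on the plus strand. The receptor genes lie on chromosome 9, *Ccr2* at 124101950 to 124113557 on the plus strand and *Cx3cr1* at 119901616 to 120069879 on the minus strand. The stretch of coding sequence around the cysteine pair is shown for each ligand, because these genes are related to each other and a count table can only separate them where their sequences differ. The capitals mark the adjacent cysteine codons, and the sequences were read from the GENCODE M21 annotation of GRCm38, 5′ to 3′ on the coding strand.
Ccl2: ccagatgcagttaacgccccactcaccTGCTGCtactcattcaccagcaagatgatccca
Ccl7: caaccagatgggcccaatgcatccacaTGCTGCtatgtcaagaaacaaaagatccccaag
Ccl12: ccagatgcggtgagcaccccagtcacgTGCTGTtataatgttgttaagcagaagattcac
Ccl8: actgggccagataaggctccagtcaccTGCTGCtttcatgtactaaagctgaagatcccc
Ccl3: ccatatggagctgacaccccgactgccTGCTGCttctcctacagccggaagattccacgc
Ccl4: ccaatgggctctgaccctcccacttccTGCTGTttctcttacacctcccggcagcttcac
Ccl6: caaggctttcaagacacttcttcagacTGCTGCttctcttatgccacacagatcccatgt
Ccl9: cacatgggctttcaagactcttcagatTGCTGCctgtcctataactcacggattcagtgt

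The most similar coding sequences were those of *Ccl12* and *Ccl8*, at 70.8% identity, followed by *Ccl6* and *Ccl9* at 70.6% and *Ccl3* and *Ccl4* at 70.0%. *Ccl2* and *Ccl12* were 67.3% identical. No stretch of 50 bases in the exons of *Ccl2*, *Ccl3*, *Ccl4*, *Ccl6*, *Ccl7*, *Ccl8* or *Ccl12* occurred in another annotated gene. The shared stretches of 50 bases made up 1.97% of *Ccl9* (with *Ppp1r7*), 1.91% of *Ccr2* and 1.06% of *Cx3cr1*, where the antisense gene *Gm33858* overlaps the exons by 78 bases. Over nearly all of their exons these genes can thus be told apart by stretches of that length.

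Total counts in the bulk libraries ranged from 20254173 to 29913427 (contralateral), 23676215 to 67457501 (early), 27021483 to 33395623 (mid) and 27855449 to 36879746 (late). Early AVFs 5 and 6 were the deepest libraries, with 67457501 and 53097813 counts, and they also held the highest *Ccl2*, *Ccl3*, *Ccl4*, *Ccl6*, *Ccl7*, *Ccl9* and *Ccl12* levels, so the calls in early AVFs are also given without them. Bulk values are CPM, a gene's count scaled to a common library size, with library sizes scaled by TMM. A gene was called where edgeR's quasi-likelihood test gave a Benjamini-Hochberg adjusted p below 0.01 over the 12673 genes and a log2 fold change of at least 1 in size. These p-values measure the spread between vessels. A bulk level does not separate fewer cells of a type from less RNA per cell, and these cannot be told apart in the bulk results that follow.

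In early AVFs, 8 of the 10 genes rose against contralateral veins: *Ccl2*, *Ccl7*, *Ccl3*, *Ccl4*, *Ccl6*, *Ccl9*, *Ccr2* and *Cx3cr1*. Among all genes tested 6.17% were called higher in this comparison and 6.45% lower. In 7 of the 8, all but *Ccr2*, every early AVF lay above every contralateral vein, a separation that 4.23% of all genes showed. *Ccl3*, *Ccl4* and *Cx3cr1*, at vein means of 0, 3.03 and 0.967 CPM, passed the filter on low counts through the AVFs. Their calls and their separation from the veins are thus not independent of that filter. *Ccl12* and *Ccl8* did not pass. Without early AVFs 5 and 6, edgeR called 6 of the 10 (and 1159 of all genes in place of 1599): the calls of *Ccl4* and *Ccr2* were lost, and the log2 fold changes were 3.47 for *Ccl7*, 1.41 for *Ccl6*, 2.09 for *Ccl9* and 5.84 for *Cx3cr1*. Against the veins, only *Ccl3* and *Cx3cr1* were still called higher at the mid and late time points, where 2.74% and 2.49% of all genes were called higher. The mid AVFs lay above every vein in 5 of the 10 genes (*Ccl2*, *Ccl7*, *Ccl3*, *Ccl9* and *Cx3cr1*) and the late AVFs in 3 (*Ccl2*, *Ccl3* and *Cx3cr1*), beside 7.07% and 5.89% of all genes.

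**Figure D1:**
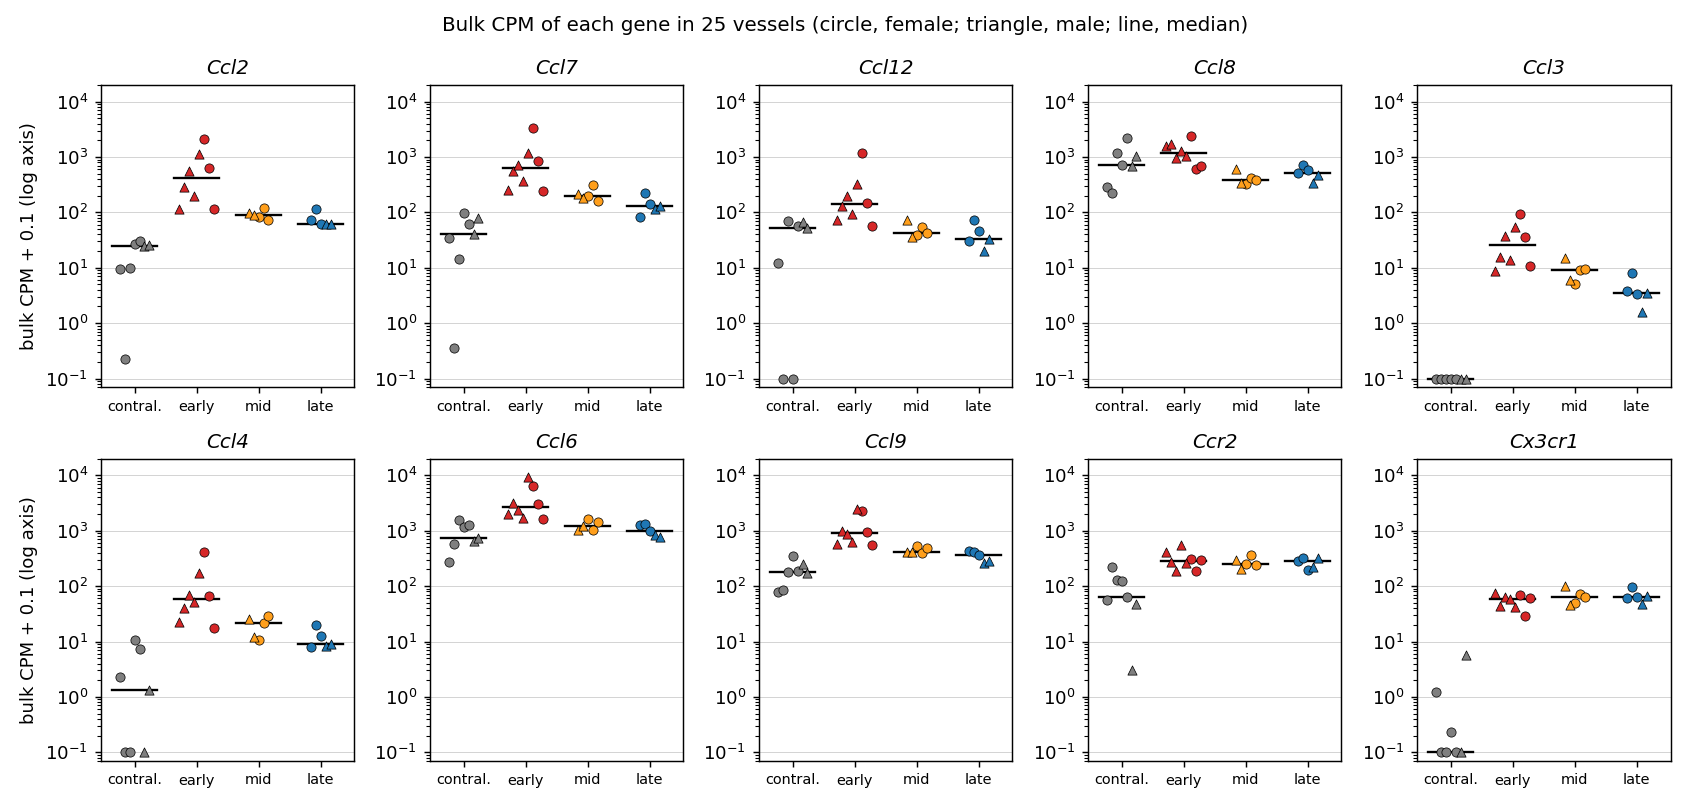
Level of each of the 10 genes in the 25 bulk libraries, 1 panel per gene, as CPM with a small constant added on a log axis (vertical), with contralateral, early, mid and late vessels along the horizontal axis. Each point is 1 vessel (circle, female; triangle, male) and the line is the group median; *Ccl2* medians were 24.3 in contralateral veins and 422 in early AVFs, while *Cx3cr1* lay between 29.0 and 102 CPM in every AVF and at or below 5.49 in every vein.

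*Ccl2*, whose product is the main monocyte attractant of this family, was measured at 0.126, 24.3 and 30.6 CPM (lowest, median and highest) in contralateral veins and at 114, 422 and 2106 CPM in early AVFs. The 5 mid AVFs held 96.3, 90.6, 83.1, 118 and 74.2 CPM, and the 5 late AVFs 73.8, 116, 61.6, 62.0 and 61.9 CPM. No contralateral vein reached any AVF, while mid and late AVFs overlapped with each other and, at the upper end, with the lowest early AVFs. The log2 fold change in early AVFs was 5.20 (SE 0.74, edgeR adjusted p = 9.03e-06), and it was 4.17 (adjusted p = 4.28e-05) without early AVFs 5 and 6. In mid and late AVFs the log2 fold changes were 2.36 (adjusted p = 0.0239, edgeR) and 2.02 (adjusted p = 0.0551, edgeR), neither of them called although the groups did not overlap. The lowest value was that of contralateral vein 28, which held 2 reads of *Ccl2* while the other 6 veins held 9.20 to 30.6 CPM.

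*Ccl7*, the neighbour of *Ccl2* on the chromosome and a second CCR2 ligand, followed the same order of groups. Its levels were 0.252, 40.2 and 96.7 CPM (lowest, median and highest) in contralateral veins and 246, 642 and 3368 CPM in early AVFs. Mid AVFs ranged from 160 to 315 CPM and late AVFs from 81.4 to 223 CPM, so that the lowest late AVF fell inside the range of the veins. The early log2 fold change was 4.41 (SE 0.72, edgeR adjusted p = 5.75e-05; 3.78 without early AVF 6), and in mid and late AVFs it was 2.21 (adjusted p = 0.0366) and 1.55 (adjusted p = 0.156). Across the 25 libraries *Ccl7* was also the gene with the profile most like that of *Ccl2* (root mean square difference of standardized log2 levels 0.168), followed by *Arpc2* at 0.282. There were 0.263 to 0.706 counts of *Ccl2* for each count of *Ccl7* in contralateral veins and 0.450 to 0.931 in early AVFs.

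*Ccl12*, which encodes the third mouse CCR2 ligand, was less even among the veins. Contralateral veins 28 and 34 held no read of it, whereas the other veins held 12.3 to 70.5 CPM. Early AVFs held 57.4, 142 and 1161 CPM (lowest, median and highest), and mid and late AVFs ranged from 36.2 to 73.7 and from 20.03 to 71.3 CPM. Most AVFs outside the early group thus lay inside the range of the veins, and so did the lowest early AVF. The early log2 fold change of 2.97 (SE 0.93, edgeR adjusted p = 0.0207) did not pass, and without early AVFs 5 and 6 it was 1.73 (adjusted p = 0.201).

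*Ccl8* differed from the other ligands of its gene group in that the veins already held it at high levels. Contralateral veins had 220, 725 and 2177 CPM (lowest, median and highest) and early AVFs 605, 1162 and 2358 CPM. The 5 mid AVFs held 605, 339, 331, 415 and 383 CPM and the 5 late AVFs 518, 710, 587, 337 and 473 CPM. Veins and early AVFs overlapped over most of their range, and the mid and late AVFs lay in the lower part of the range of the veins. Against the veins, edgeR gave *Ccl8* a log2 fold change of 0.53 at the early time point (SE 0.36, adjusted p = 0.321), which is not a call. It gave −1.11 (SE 0.42, adjusted p = 0.0851) at the mid and −0.80 (adjusted p = 0.236) at the late time point, which are none either. Mid AVFs did not overlap with early AVFs (log2 fold change −1.64, edgeR adjusted p = 0.0247), a difference that was not called either.

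*Ccl3* was the gene with the clearest on-off pattern. All 7 contralateral veins held 0 reads of it, early AVFs held 8.72, 25.9 and 92.4 CPM (lowest, median and highest), mid AVFs 14.9, 5.84, 4.92, 9.05 and 9.52 CPM, and late AVFs 3.77, 7.79, 3.27, 1.48 and 3.36 CPM. Against a floor of 3 counts over the whole group of veins, the mean was at least 1891-fold higher in early, 498-fold higher in mid and 222-fold higher in late AVFs. The edgeR adjusted p was 2.10e-08, 3.77e-07 and 1.78e-06 in turn, and DESeq2 called *Ccl3* at all 3 time points as well. *Ccl4*, its neighbour, was at 0 reads in 3 veins and at 10.5 CPM in the highest vein. Early AVFs held 17.5, 59.3 and 413 CPM of *Ccl4* (lowest, median and highest), and the log2 fold change was 5.18 (SE 1.09, edgeR adjusted p = 0.000944). It was 5.95 without contralateral vein 34 and 4.46 without early AVF 6. Without both early AVFs 5 and 6 it was 3.91 with an adjusted p of 0.0116 (edgeR), which is no longer a call. Mid AVFs at 10.4 to 28.5 CPM and late AVFs at 7.72 to 19.5 CPM were not called (log2 fold changes 2.68 and 1.86, edgeR adjusted p = 0.0866 and 0.257).

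*Ccl6* and *Ccl9*, the myeloid ligands of CCR1, were present in every vessel. *Ccl6* was measured at 272, 743 and 1565 CPM (lowest, median and highest) in contralateral veins and at 1640, 2693 and 9430 CPM in early AVFs. Its log2 fold change was 2.10 there (SE 0.38, edgeR adjusted p = 0.000191). The 5 mid AVFs held 1040 to 1599 CPM and the 5 late AVFs 782 to 1308 CPM, with log2 fold changes of 0.53 and 0.20 that were not called (edgeR adjusted p = 0.451 and 0.811). *Ccl6* in mid and late AVFs thus lay within the range of the veins or just above it. The veins held 77.4, 180 and 352 CPM of *Ccl9* and the early AVFs 550, 915 and 2472 CPM, which is 2.71 on the log2 scale (SE 0.36, edgeR adjusted p = 3.72e-06). Mid AVFs at 409, 412, 523, 401 and 489 CPM still lay above every vein, with a log2 fold change of 1.29 that was not called (edgeR adjusted p = 0.0229, and 0.00740 without contralateral vein 34, the highest vein). Late AVFs at 425, 418, 358, 262 and 279 CPM overlapped with the veins (0.90, edgeR adjusted p = 0.127).

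*Ccr2*, the receptor of CCL2, CCL7 and CCL12, was measured at 2.91, 64.6 and 224 CPM (lowest, median and highest) in contralateral veins and at 189, 282 and 554 CPM in early AVFs. The 5 mid AVFs held 297, 207, 246, 358 and 239 CPM of it and the 5 late AVFs 279, 316, 199, 224 and 315 CPM. The 3 AVF groups overlapped almost completely, and contralateral vein 28, the highest vein, lay inside their range. The early log2 fold change was 1.77 (SE 0.45, edgeR adjusted p = 0.00499). The mid and late ones, at 1.56 and 1.52, had adjusted p of 0.0337 and 0.0397 (edgeR) and were not called. The early call was lost when any 1 of contralateral veins 27, 35 and 633 or early AVFs 4 and 10 was left out, with adjusted p between 0.0101 and 0.0151 (edgeR). Without early AVFs 5 and 6 the adjusted p was 0.01001, just above the threshold. The mid and late changes were both called without contralateral vein 28, the highest vein, or without vein 632, the lowest (edgeR adjusted p between 0.00612 and 0.00872).

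*Cx3cr1* was at 0 reads in 4 of the 7 veins, and the other veins held 0.135, 1.15 and 5.49 CPM. Early AVFs held 29.0, 59.0 and 75.2 CPM (lowest, median and highest), mid AVFs 102, 46.0, 49.1, 72.1 and 63.4 CPM, and late AVFs 61.9, 96.9, 64.7, 47.7 and 67.6 CPM. No vein reached any AVF, and the 3 AVF groups lay over each other. By edgeR, *Cx3cr1* rose by 5.85 on the log2 scale at the early time point (SE 1.01, adjusted p = 0.000113). It stayed called at the mid (6.09, SE 1.05, adjusted p = 0.000256) and late time points (6.09, SE 1.05, adjusted p = 0.000315). The calls at all 3 time points held without any 1 library in turn, and without contralateral vein 633, the one with 5.49 CPM, the log2 fold changes were 7.99, 8.23 and 8.23. DESeq2 on the same genes called *Cx3cr1* at none of them, with log2 fold changes of 2.98, 3.29 and 3.29 and adjusted p of 0.0363, 0.0572 and 0.0606.

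**Figure D2:**
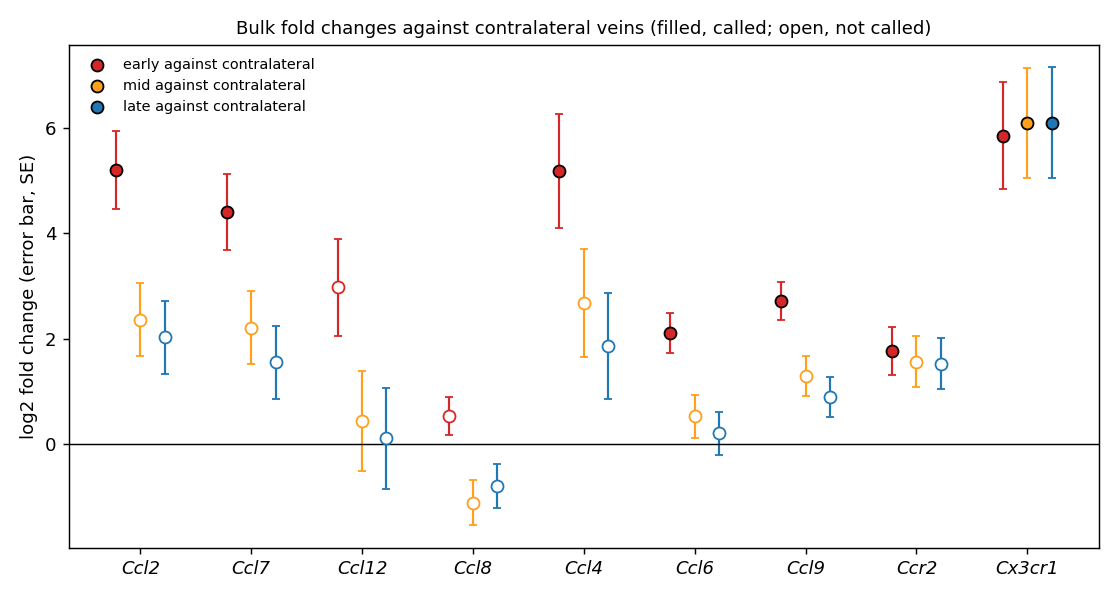
Log2 fold change against contralateral veins (vertical axis) for 9 of the 10 genes (horizontal axis) in early, mid and late AVFs, with error bars of 1 standard error from edgeR and filled points where the comparison was called. *Ccl3* is left out because all veins held 0 reads; *Ccl2* stood at 5.20, 2.36 and 2.02 and *Cx3cr1* at 5.85, 6.09 and 6.09.

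The change over time was tested between AVF groups directly. Late AVFs held less *Ccl3* (log2 fold change −3.19, SE 0.73, edgeR adjusted p = 0.00965), less *Ccl6* (−1.90, SE 0.43, adjusted p = 0.00652) and less *Ccl9* (−1.81, SE 0.40, adjusted p = 0.00529) than early AVFs, where 2.28% of all genes were called lower. In *Ccl3*, *Ccl6*, *Ccl7* and *Ccl9* every late AVF lay below every early AVF, as did 7.69% of all genes. *Ccl2* (−3.18, edgeR adjusted p = 0.0105) and *Ccl7* (−2.85, adjusted p = 0.0210) did not pass; both did without contralateral vein 28, and *Ccl2* also without early AVF 1, 2, 4 or 10. With 1 library left out in turn, *Ccl3* was called in 11, *Ccl6* in 17 and *Ccl9* in 18 of 25 fits. None of them was called without early AVF 5, without early AVF 6, or without any 1 of the 5 late AVFs. None was called without both early AVFs 5 and 6 either, when the log2 fold changes were −2.43 (*Ccl3*), −1.18 (*Ccl6*) and −1.16 (*Ccl9*). How many of all genes kept their call in these fits is not given here, so the losses are not shown to be particular to these 3 genes. The receptors were not called between late and early AVFs (*Ccr2* −0.24, adjusted p = 0.958, and *Cx3cr1* 0.24, adjusted p = 0.984, edgeR). Between mid and early AVFs none of the 10 genes was called by edgeR, with 0.00789% of all genes called and 1614 genes at an unadjusted p below 0.05. *Ccl8*, *Ccl6* and *Ccl9* lay lower in every mid than in every early AVF, as did 4.94% of all genes, with adjusted p between 0.0247 and 0.0334 (edgeR). DESeq2 called 4 of the 10 there, and 431 of the 12673 genes. Between late and mid AVFs none was called by edgeR, of 0% of all genes, with 39 genes at an unadjusted p below 0.05.

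Per kilobase of exon, *Ccl8* had the highest mean level of the 10 genes and *Ccl6* the next in each of the 4 groups. In contralateral veins these means were 1764 and 499 CPM per kb, and in early AVFs 2511 and 2066. By vessel the order was the opposite in early AVFs 5 and 7 and in mid AVFs 12, 13 and 15, so that *Ccl8* and *Ccl6* cannot be ranked in those groups. The order behind them in early AVFs was *Ccl7* (1180), *Ccl2* (563), *Ccl12* (510), *Ccl9* (384), *Ccl4* (162), *Ccr2* (45.8), *Ccl3* (43.8) and *Cx3cr1* (12.3 CPM per kb). The spread between early AVFs was as wide as the steps between most neighbours in this order: *Ccl2* and *Ccl12*, for instance, or *Ccr2* and *Ccl3*, cannot be ranked against each other. Summed over the 8 ligands, the group medians were 2106 CPM (contralateral), 6051 CPM (early), 2479 CPM (mid) and 2216 CPM (late). The 8 ligands took 0.0695% to 0.376% of all counts in the veins and 0.374% to 1.35% in early AVFs.

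Other CC ligands and receptors, from a list of their own, showed which neighbours of these genes in the chemokine system moved with them. Of 13 ligands outside the 8, 10 were tested, and in early AVFs 2 were higher and 1 lower, with a median log2 fold change of 0.10 beside −0.01 over all genes. *Ccl17* (log2 fold change 7.18, adjusted p = 1.09e-05) and *Ccl22* (8.10, adjusted p = 4.66e-06), ligands of CCR4 that mature dendritic cells make, rose from mean levels of 0.0194 and 0.0291 CPM to 3.64 and 9.82 CPM by edgeR. Their vein levels were near 0 (SD 0.0512 and 0.0769 CPM), so the size of these fold changes is poorly fixed. Both genes passed the filter on low counts through the AVFs. *Ccl11*, the eotaxin that attracts eosinophils, fell from a mean of 400 CPM to 47.8 CPM (−3.04, SE 0.34, adjusted p = 2.32e-07, edgeR). The same 3 genes were called in the same direction in mid and late AVFs. *Cx3cl1*, the ligand of CX3CR1, stood at 34.3 CPM in veins and 24.1 CPM in early AVFs (−0.46, edgeR adjusted p = 0.579). Among the receptors outside the pair, *Ccr1*, which binds CCL3, rose in early AVFs from a mean of 14.8 CPM to 163 CPM (3.51, edgeR adjusted p = 0.00171). *Ccr7*, the homing receptor of mature dendritic and naive T cells, rose from 0.0451 to 13.3 CPM (8.08, edgeR adjusted p = 9.64e-05) and was called higher in mid and late AVFs as well. Its vein level was likewise near 0 (SD 0.119 CPM), and the size of its fold change is as poorly fixed.

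Marker genes of macrophages, monocytes and neutrophils moved in the same libraries. Fibroblasts, in which *Ccl2* and *Ccl7* were measured in the single-cell libraries below, had no marker list in bulk and are not covered here. In early AVFs 7 of 10 macrophage markers were higher and none lower (median log2 fold change 1.91), 5 of 10 tested monocyte markers were higher and 2 lower (2.77), and 5 of 7 neutrophil markers were higher (5.42). The macrophage markers summed to 2174 to 8451 CPM in the veins and to 11554 to 35061 CPM in early AVFs, and to 10846 to 15639 and 7510 to 17180 CPM at the mid and late time points. The neutrophil markers summed to 5.35 to 263 CPM in the veins and to 325 to 4259 CPM in early AVFs, and to 170 to 411 and 132 to 331 CPM later. The summed monocyte markers ran from 479 to 1173 CPM in veins and from 985 to 7439 in early AVFs, and overlapped with the veins in mid (774 to 1369) and late AVFs (544 to 2030). None of the 3 tested T-cell markers and none of the 3 tested B-cell markers was called in early AVFs. Skeletal muscle markers, which stand for tissue outside the vessel wall, rose in 5 of 5 cases (median 8.13) and summed to 0.203 to 31.9 CPM in veins and 4.98 to 3830 CPM in early AVFs. None of 4 adipocyte markers was called. The 2 tested parathyroid and thyroid markers were not called, but their median log2 fold change was 10.43 in early AVFs, and the list summed to 14582 CPM in early AVF 1, 1544 CPM in mid AVF 12 and 5420 CPM in late AVF 19, against at most 10.9 CPM in the veins and at most 221 CPM in the other AVFs. Leaving out any of these 3 vessels changed no call of the 10 genes against the veins. Of 12 immediate early and heat-shock genes 1 was higher and 2 lower in early AVFs. The part of any of these cells in the chemokine differences was not tested in bulk.

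Because the groups differed in their share of male mice, the interaction of sex with the early difference was tested. It passed in none of the 10 genes after adjustment, while 57 genes passed at 0.05 over the whole table. The early log2 fold change of *Ccr2* was larger in males by 2.56 (edgeR adjusted p = 0.318), the lowest adjusted p of the 10. Contralateral *Ccr2* was at 2.91 and 47.2 CPM in the 2 male veins and at 57.1 to 224 CPM in the 5 female veins. The value of 2.91 CPM was that of vein 632, flagged below as low, and a difference between male and female veins was not tested. Early *Ccr2* was at 189 to 554 CPM in males and 189 to 303 CPM in females.

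The single-cell libraries show in which cells the 10 genes were measured. After the filters, 6319 contralateral, 4753 early and 5821 late cells remained of 11563, 7074 and 7801 barcodes, with median depths of 2751, 8951 and 15425 UMIs. The upper limit of 6000 genes per cell removed 25, 838 and 588 barcodes, and the kept cells held 72.5%, 49.3% and 71.8% of all UMIs. The libraries shared only 5 or 6 barcodes in each pair. Cells were clustered without these 10 genes, without the CC list and without the markers, and clusters were then named from their markers. Monocytes and macrophages (mono/macros) were 11.4%, 42.6% and 28.2% of contralateral, early and late cells, fibroblasts 29.4%, 8.71% and 33.9%, neutrophils 0.981%, 16.4% and 4.78%, and T cells 10.1%, 3.56% and 9.72%. Single-cell levels are the UMIs of a gene in a class, scaled as CPM to all UMIs of that class, and intervals are exact 95% Poisson intervals, which cover counting error only. With 1 library per condition there is no test between conditions.

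*Ccl2* and *Ccl7* were measured in fibroblasts as well as in mono/macros. Fibroblast *Ccl2* was at 450 CPM (95% interval 438 to 462) in the contralateral library, 2572 (2543 to 2601) in the early and 3713 (3696 to 3730) in the late library. Mono/macro *Ccl2* was at 1906 (1860 to 1952), 1297 (1284 to 1311) and 1894 (1876 to 1911) CPM. The fibroblast level was thus 5.72 times the contralateral one in the early library and 8.25 times in the late library, while the mono/macro level was 0.681 and 0.994 times the contralateral one. *Ccl7* had the same shape, with 190, 1754 and 2532 CPM in fibroblasts and 1501, 1134 and 1747 CPM in mono/macros. B cells (377, 36 and 72 cells) held 39.5, 80.5 and 295 CPM of *Ccl2*. They were taken as a rough measure of RNA from other cells, whether free in the droplets or from doublets. Whether B cells made *Ccl2* themselves was not tested. Of cells thinned to 1000 UMIs, 8.93%, 49.8% and 52.9% of fibroblasts and 4.42%, 17.1% and 21.4% of B cells held a UMI of *Ccl2*, and unthinned the fibroblast shares were 21.0%, 92.5% and 95.04%, at median depths of 4380, 31839 and 25120 UMIs. In the late library fibroblasts held 77.9% of all *Ccl2* UMIs and 73.1% of all *Ccl7* UMIs, and mono/macros 19.0% and 24.1%. In the contralateral and early libraries mono/macros held 50.5% and 53.0% of the *Ccl2* UMIs and fibroblasts 44.4% and 42.2%. These shares are of the kept cells, which held 49.3% of all UMIs in the early library. The upper limit on genes removed 838 early barcodes, and fibroblasts were the deepest class of the early cells that remained. How the removed barcodes would change the early shares is not given here.

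The fibroblast values came from different clusters in the 3 libraries. Contralateral fibroblasts were mostly a cluster led by *Inmt*, *Sfrp2* and *Clec3b* (1670 of 1860 cells), early fibroblasts mostly a cluster led by *Aspn*, *Postn* and *Cthrc1* (285 of 414 cells), and late fibroblasts mostly a cluster led by *Ptx3*, *Has1* and *Tnfaip6* (1821 of 1976 cells). The *Inmt* cluster held 275 CPM of *Ccl2* (265 to 285) in the contralateral library and 177 CPM (139 to 222) in its 31 late cells. The *Ptx3* cluster held 1474 CPM (1420 to 1530) in its 187 contralateral cells, 2494 (2443 to 2546) in its 127 early cells and 3824 (3807 to 3842) in its late cells. The *Aspn* cluster held 2611 and 2598 CPM of *Ccl2* in the early and late libraries. Within the *Inmt* cluster *Ccl2* was thus not higher in late than in contralateral cells, and the difference between whole fibroblast classes went with the cluster that filled each library as well as with a higher level inside the *Ptx3* cluster.

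Most UMIs of *Ccl8* and *Ccl12* came from mono/macros. Mono/macro *Ccl8* was at 1800 (1756 to 1845), 1349 (1336 to 1363) and 1309 CPM (1294 to 1323) in the contralateral, early and late libraries, and fibroblast *Ccl8* at 79.7, 141 and 129 CPM. Mono/macros held 80.7%, 93.1% and 80.0% of all *Ccl8* UMIs. Mono/macro *Ccl12* was at 312 (294 to 331), 265 (259 to 271) and 268 CPM (261 to 274), mono/macros held 93.2%, 98.0% and 95.2% of its UMIs, and no other named class in any library was above 29.2 CPM. For both genes the contralateral mono/macros, the smallest set of cells, had the highest level.

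*Ccl3* was highest in neutrophils, at 4753 (4460 to 5059), 9758 (9651 to 9866) and 4548 CPM (4416 to 4682) in the contralateral, early and late libraries, against 1160, 1536 and 2162 CPM in mono/macros and 52.3, 70.0 and 53.8 CPM in B cells. The 778 neutrophils of the early library held 40.6% of its *Ccl3* UMIs, compared with 16.8% from 62 contralateral and 7.5% from 278 late neutrophils. *Ccl4* was at 4837, 5476 and 9380 CPM in mono/macros and at 1832, 6269 and 3311 CPM in neutrophils. Neutrophils of the early library were thus higher in both genes than those of the other libraries, while mono/macros were highest in the late library. T cells, which can make *Ccl4*, held 597, 388 and 420 CPM of it.

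*Ccl6* and *Ccl9* were higher in mono/macros of both AVF libraries than in contralateral mono/macros. *Ccl6* was at 591 (566 to 617), 1237 (1225 to 1250) and 1115 CPM (1101 to 1128), which is 2.09 and 1.89 times the contralateral level, and *Ccl9* at 515, 999 and 970 CPM, which is 1.94 and 1.88 times. Neutrophils held *Ccl6* at 1305, 684 and 640 CPM but little *Ccl9*, at 14.5, 143 and 107 CPM. Fibroblasts stayed at or below 20.2 CPM of *Ccl6* and 29.9 CPM of *Ccl9*.

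*Ccr2* had its highest level of the large named classes in T cells, at 468 (443 to 493), 262 (235 to 292) and 370 CPM (352 to 389), and was at 129 (118 to 142), 181 (176 to 186) and 173 CPM (168 to 178) in mono/macros. T cells held 64.6% of the *Ccr2* UMIs of the contralateral library, 5.4% of the early and 24.4% of the late library, and mono/macros held 21.2%, 85.2% and 64.7%. A small cluster without a name, led by *Il1b*, *Ccr7*, *Ccl17*, *Ccl22* and class II genes (55, 139 and 150 cells), held 580, 240 and 150 CPM of *Ccr2*. Neutrophils had 0, 7.99 and 22.1 CPM and B cells 12.9, 17.5 and 0 CPM. The contralateral value of 0 in neutrophils allows up to 17.8 CPM by the Poisson interval.

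*Cx3cr1* was almost level in mono/macros, at 57.7 (50.01 to 66.3), 60.0 (57.2 to 62.9) and 61.5 CPM (58.4 to 64.7). Mono/macros held 67.9%, 92.7% and 82.7% of its UMIs. T cells were at 19.0, 5.51 and 3.30 CPM and B cells at 0.918, 17.5 and 0 CPM. Of mono/macros thinned to 1000 UMIs, 4.65%, 5.56% and 5.33% held a UMI of *Cx3cr1*, against no thinned B cell in any library. The 3 intervals of the mono/macro level overlap. A level within 1 class is not the same measure as a bulk level of a whole vessel. Over all cells, *Cx3cr1* was at 10.1, 33.7 and 18.2 CPM in the contralateral, early and late libraries. In bulk, the veins held a mean of 0.967 CPM and early AVFs 55.4 CPM.

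**Figure D3:**
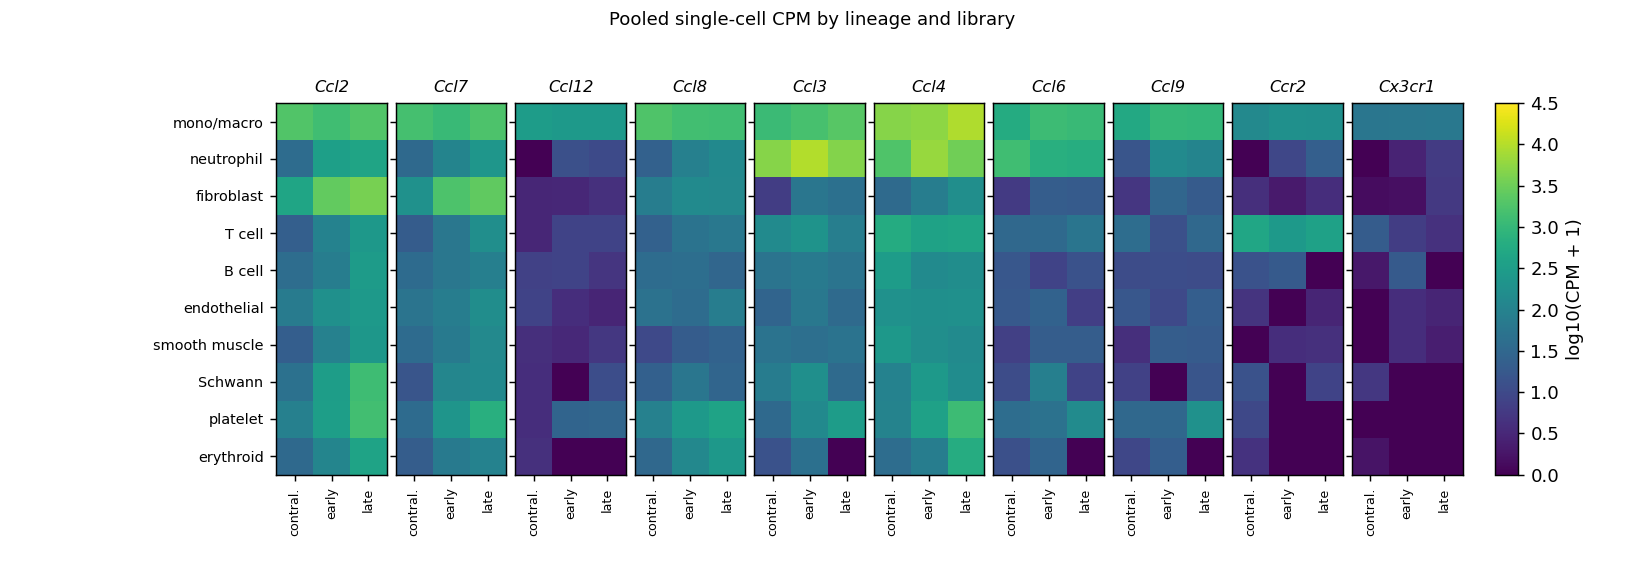
Single-cell CPM of each of the 10 genes (panels) in the named cell classes (rows) of the contralateral, early and late libraries (columns), as a colour for log10(CPM + 1). Each field is the sum over the cells of 1 class in 1 library; fibroblast *Ccl2* stood at 450, 2572 and 3713 CPM and neutrophil *Ccl3* at 4753, 9758 and 4548 CPM.

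The mono/macro class was not uniform, and its clusters filled the 3 libraries unequally. A cluster led by *F13a1*, *Mrc1* and *Cd163* made up 618 of 719 contralateral mono/macros and only 21 early and 9 late cells. A cluster led by *Il1b*, *Lyz2* and *Cd14* held 13, 1170 and 786 cells, and one led by *Lyz2* and C1q genes 88, 836 and 848 cells. The mono/macros were therefore clustered again by themselves, also without the 10 genes, into 9 subclusters.

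Levels of *Ccr2* and *Ccl8* differed between these subclusters. The monocyte subcluster (markers *Ly6c2*, *Plac8* and *Chil3*) held 461 CPM of *Ccr2* (445 to 478) in its 594 early cells and 296 CPM (279 to 314) in its 294 late cells, with only 94.8 and 71.9 CPM of *Ccl8*. The larger subcluster of *Arg1* and *Spp1* macrophages (901 early and 53 late cells) held 106 and 129 CPM of *Ccr2* and 2259 and 1375 CPM of *Ccl8*. In the contralateral library, a subcluster with resident macrophage markers (*Cd163*, *Lyve1* and *Folr2*; 301 cells), led by genes of the *Cd209* family and haemoglobin, held 2479 CPM of *Ccl8* (2412 to 2547) and 8.53 CPM of *Ccr2*. A larger but shallower resident subcluster of that library (352 cells), also led by haemoglobin genes, held 568 CPM of *Ccl8* (515 to 625) and 385 CPM of *Ccr2* (342 to 433). Its leading genes included *Clec3b* and *Dcn*, which also led a fibroblast cluster, and the part of RNA from other cells in its levels was not tested. High *Ccr2* did not always go with low *Ccl8*: the 48 early cells of another subcluster, which heat-shock genes led, had 449 CPM of *Ccr2* and 1683 CPM of *Ccl8*. The naming rule called this subcluster resident, but the mean log2 fold of its resident markers was 1.15, against 3.50 in the *Cd209* subcluster. Values of its 452 late cells are not given here.

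The *Arg1* and *Spp1* macrophages fell into subclusters that differed in their chemokines. Next to the larger one, with 414 and 479 CPM of *Ccl12*, stood a second (331 early and 147 late cells; *Mmp12*, *Slpi* and *Inhba* among its leading genes) with 44.4 and 42.6 CPM of *Ccl8* and 43.9 and 6.6 CPM of *Ccl12*. The same cells held 1794 and 1923 CPM of *Ccl6* and 1734 and 2259 CPM of *Ccl9*, against 1306 and 818 CPM of *Ccl6* and 797 and 714 CPM of *Ccl9* in the larger subcluster. The second subcluster was thus lower in *Ccl8* and *Ccl12* and higher in *Ccl6* and *Ccl9* in both AVF libraries, with the least difference for *Ccl6* in the early one. Another *Arg1* and *Spp1* subcluster (28 early and 33 late cells), which genes of cell division led, held 752 and 617 CPM of *Ccl8* and 579 and 222 CPM of *Ccl6*. An unnamed subcluster of 71 late cells also held much *Ccl6* (3405 CPM) and *Ccl9* (2239 CPM) with 31.1 CPM of *Ccl8*.

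*Ccl4* stood above its level over all mono/macros in an unnamed subcluster led by *Ccl5*, *Oasl1* and *Ifit1*, genes of the interferon response among them. The subcluster had 25 of 719 contralateral, 51 of 2027 early and 553 of 1643 late mono/macros. These cells held 25666, 11416 and 14828 CPM of *Ccl4* and 7904, 3002 and 2832 CPM of *Ccl2*. Their share of all *Ccl4* UMIs is not given here. *Cx3cr1* was at 62.2 CPM (58.2 to 66.5) in the larger *Arg1* and *Spp1* subcluster of the early library, 52.5 CPM (47.1 to 58.2) in early monocytes and 25.8 CPM (21.0 to 31.4) in late monocytes. A higher value of 191 CPM (164 to 222) stood in the 53 late cells of the larger *Arg1* and *Spp1* subcluster. In the resident cells of the contralateral library with high *Ccl8*, *Cx3cr1* was at 11.4 CPM (7.3 to 16.9).

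**Figure D4:**
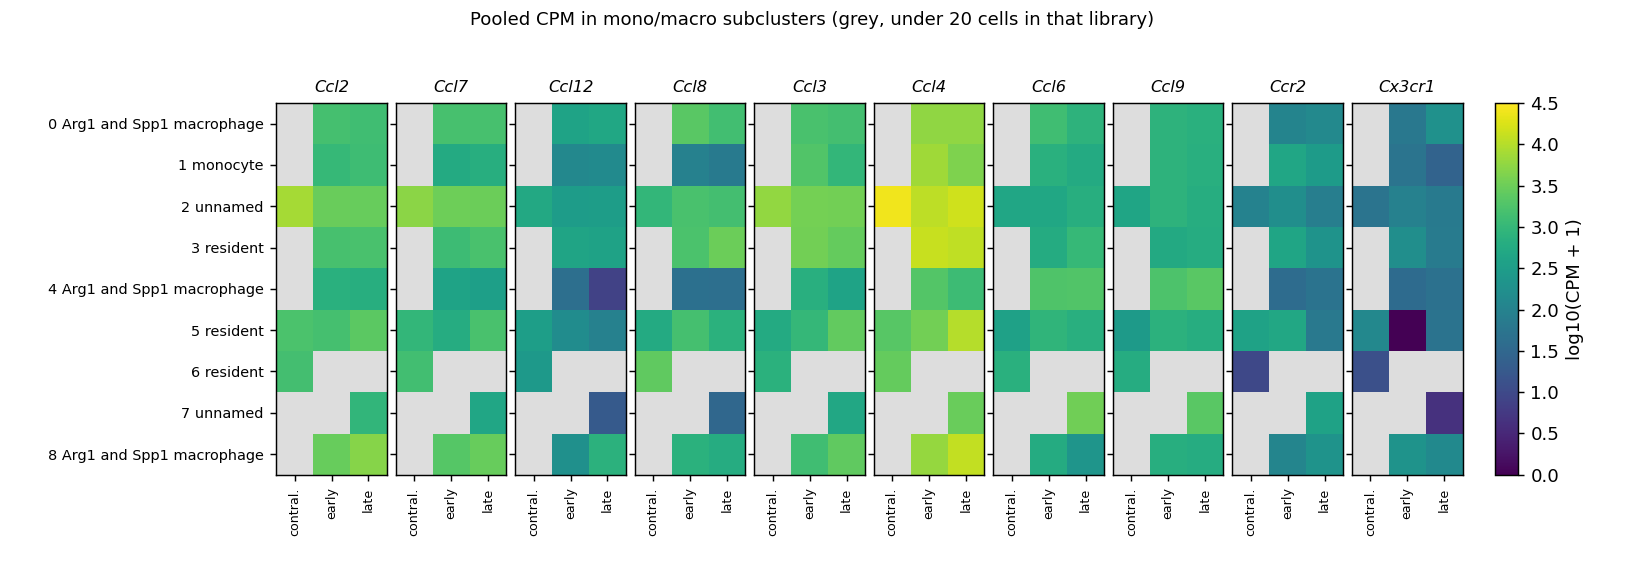
Single-cell CPM of each of the 10 genes (panels) in the mono/macro subclusters (rows) of the contralateral, early and late libraries (columns), as a colour for log10(CPM + 1); fields of under 20 cells are grey. *Ccl8* is high in the larger *Arg1* and *Spp1* subcluster (2259 CPM early) and low in monocytes (94.8 CPM early), where *Ccr2* stands at 461 CPM.

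Bulk and pooled single-cell levels did not always run in parallel. *Ccl2* averaged 18.2, 641 and 75.0 CPM in bulk contralateral veins, early and late AVFs, and 450, 1274 and 2438 CPM over all cells of the single-cell libraries of the same names. Late was thus below early in bulk and above it in cells. Both early and late cells came from later mean days than the bulk vessels of the same name, so the time points are not alike. *Ccl7* had 46.4, 945 and 138 CPM in bulk and 277, 986 and 1771 CPM in cells. *Ccl3* was at 0, 33.6 and 3.93 CPM in bulk and at 200, 1403 and 613 CPM in cells, and *Ccl4* was 239, 31.0 and 218 times higher in cells than in bulk. *Ccl6* had the reverse relation, with 895, 3709 and 1041 CPM in bulk and 96.0, 703 and 303 CPM in cells. *Ccr2* was at 92.7, 309 and 267 CPM in bulk and 72.9, 111 and 65.3 CPM in cells, so that late stood above contralateral in bulk and slightly below it in cells. *Cx3cr1* was at 0.967, 55.4 and 67.8 CPM in bulk and 10.1, 33.7 and 18.2 CPM in cells, so that early and late stood above contralateral in both.

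The level in cells over the mean in bulk was 24.7, 1.99 and 32.5 for *Ccl2* and 5.96, 1.04 and 12.9 for *Ccl7* in contralateral, early and late samples, and so was lowest in early ones. *Fosb* and *Hspa1a*, genes that respond to handling of cells, were higher in cells than in bulk in all 3 conditions. Of the 12 immediate early and heat-shock genes, they had the lowest means in bulk early AVFs. The levels of the other genes of that list in cells are not given here. The vessels for single cells were digested with enzymes at 37 °C, whereas those for bulk were ground while frozen. *Fosb*, an immediate early gene, was at mean levels of 8.81 (SD 21.7), 1.82 (SD 1.11) and 2.47 (SD 0.210) CPM in bulk contralateral veins, early and late AVFs and at 1150, 684 and 1689 CPM in cells. *Hspa1a*, a heat-shock gene, was at 81.3, 8.89 and 12.1 CPM in bulk and 2962, 3498 and 6067 CPM in cells. The part of the handling of cells in the single-cell levels of *Ccl2*, *Ccl3*, *Ccl4* and *Ccl7* was not tested. The assays also differ in that a 3′ UMI count does not scale with gene length, whereas a bulk count does.

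**Figure D5:**
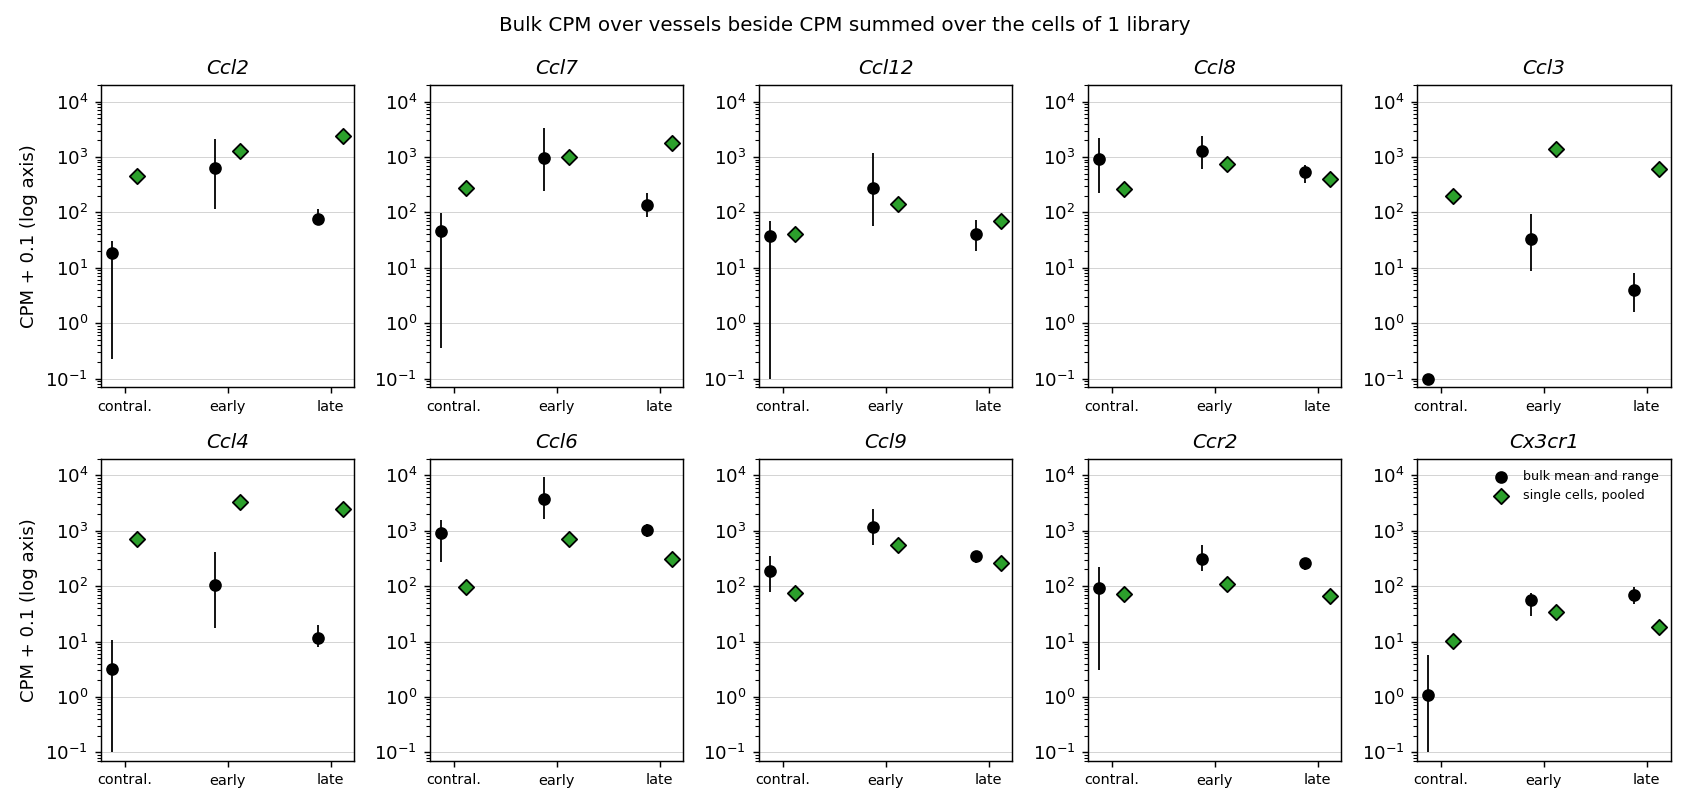
Mean bulk CPM and pooled single-cell CPM of each of the 10 genes (panels) in contralateral veins, early AVFs and late AVFs (horizontal axis), on a log axis with a small constant added; vertical lines span the vessels. For *Ccl2*, bulk means stood at 641 in early and 75.0 in late AVFs while cells stood at 1274 and 2438 CPM; the bulk mean of 0 (*Ccl3* in veins) is drawn at the foot of its panel.

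The other chemokine genes had cell sources of their own in the same libraries. *Ccl11*, the gene that fell in bulk, was in fibroblasts at 487, 110 and 433 CPM in the contralateral, early and late libraries. *Ccr1* was highest in neutrophils (1185, 870 and 1058 CPM). *Ccr7*, *Ccl17* and *Ccl22* were in the unnamed cluster that they helped to lead.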

How the data were processed

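The authors made the deposited bulk table of raw counts per gene from 25 poly(A) libraries, and the deposited UMI counts of 3 single-cell libraries with Cell Ranger 6.0.2 (per the file headers). The labels list STAR and the build mm10/GRCm38. How bulk reads were counted, and with which annotation release, was not given in the sources used here. Of 56980 bulk IDs, 32210 took their symbol from the single-cell features and 19962 from GENCODE M21, and 4808 stayed without a symbol.

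Bulk counts of genes with a DESeq2 base mean of at least 100 (12673 genes, after the study's methods) were tested with edgeR 4.0.16 (R 4.3.3; TMM, quasi-likelihood F test, 1 mean per group, all 25 libraries in 1 fit) with Benjamini-Hochberg adjustment over all genes. Calls needed an adjusted p below 0.01 and a log2 fold change of at least 1 in size. DESeq2 1.42.0, edgeR's likelihood ratio test, RLE size factors, other filters, sex as a covariate, 1 sex only and leaving out each library were alternatives. Leaving out early AVFs 5 and 6, males only and no upper limit on genes per cell were chosen after seeing the data. The script was first tested on simulated data.

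Cells passed with 200 to 6000 genes and no more than 10% mitochondrial counts, and they were clustered with scanpy 1.11.5 (2000 variable genes without the 10 genes, lists and markers, 12 components, leidenalg 0.10.2 at resolution 0.5) and named from fixed markers, by a rule revised after the first names were seen. Scrublet called 1, 1 and 109 doublets, too few to count as a working call in the contralateral and early libraries, and none was removed. The study's methods name no doublet step. Thinning drew 1000 UMIs per cell. Likeness was the root mean square difference of standardized log2 CPM. The 10 genes were all named. Of each list at most 6 called genes were named, those with the largest early fold change and any that binds one of the 10. The 10 genes and the lists were chosen with earlier results of these data known. No value column was left unassigned. One receptor of the list is not reported here.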

Additional observations from a re-analysis of the deposited data

Results flagged for a closer look

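In each group of 5 to 8 vessels, the highest and lowest log2 level of each gene were compared with their nearest neighbour by Dixon's ratio. Chance flags about 1 in 20 groups, and 4 of 39 were flagged. Contralateral vein 28 was low in *Ccl2*, at 0.126 CPM against 9.20 to 30.6 CPM in the other veins, and in *Ccl7*, at 0.252 CPM against 14.1 to 96.7 CPM. Contralateral vein 632 was low in *Ccr2*, at 2.91 CPM against 47.2 to 224 CPM in the other veins. Late AVF 17 was high in *Ccl2*, at 116 CPM against 61.6 to 73.8 CPM in the other late AVFs. No difference between the sexes in the early change of any of the 10 genes passed the test.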

How the results depend on the processing

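Counts here are of the 10 genes called. In early AVFs against contralateral veins 8 were called (1599 of all genes), 4 with female (368) and 2 with male mice only (1043), and 6 without early AVFs 5 and 6 (1159). In mid AVFs against veins 2 were called (767 of all genes), 4 by edgeR's likelihood ratio test, 6 at an adjusted p below 0.05, 4 by DESeq2 and 1 with males only. In late AVFs against veins 2 were called (676 of all genes), 1 by DESeq2 and 0 with males only. Between mid and early AVFs 0 were called (1 of all genes), 3 by the likelihood ratio test, 4 at 0.05 and 4 by DESeq2. Between late and early AVFs 3 were called (381 of all genes), 5 by the likelihood ratio test, 1 after filterByExpr, 5 at 0.05, 6 by DESeq2, and 0 with females only, males only or without early AVFs 5 and 6. For most other settings in these comparisons, and with a library left out, counts over all genes are not given here. Changes between settings are thus not shown to be particular to the 10 genes. The cause of these changes between tools was not tested. Leaving out each library in turn gave 7 to 8 calls in early, 2 to 3 in mid and 2 to 3 in late AVFs against veins, 0 to 0 between mid and early, 0 to 5 between late and early, and 0 to 0 between late and mid AVFs. The 5 calls came without contralateral vein 28. *Ccl12* turned sign where its log2 fold change was near 0: against veins it was 0.43 in mid AVFs (−0.11 with males only) and 0.11 in late AVFs (−1.14 with males only, −0.14 to 0.36 leaving out each library). Among single fold changes with a library left out, 951 kept direction and side of the threshold, 11 gained and 34 lost the call, and 4 turned sign. In single cells, 354 levels under other filters or resolutions moved by less than their counting interval and 126 by more, and without the upper limit on genes per cell late T cells held 1107 CPM of *Ccl2* in place of 251. No paired analysis was possible because the groups share no vessel numbers and the labels do not tie veins to AVFs. With 5 to 8 vessels a group and 1 single-cell library per condition, small differences were not detectable.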
